A study of Mus musculus with 19 samples.

Results

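The genes described here serve fatty acid oxidation or are targets of the nuclear receptor PPAR alpha. They are 41 genes chosen by name, of 35498 genes for which reads were summed, in mouse liver. All 41 were found by their symbol and all 41 passed the filter on low counts. By role they comprise 2 regulators, 3 genes of fatty acid uptake and activation, 4 of the carnitine shuttle, 9 of the mitochondrial oxidation spiral, 3 auxiliary mitochondrial enzymes, 3 of electron transfer, 1 ketogenic enzyme, 8 peroxisomal genes, 2 cytochromes of omega-oxidation, 4 acyl-CoA thioesterases and 2 other targets. RNA was sequenced from livers of male mice of the C57BL/6J strain, written C57Bl/J6 in the labels, with no transgene or other allele named. Treatment is labelled WSD for 5 of the libraries, WSD+beta-Glucan for 4, CTRL for 5 and CTRL+beta-Glucan for the other 5, and the labels place every library at 24 weeks without saying whether that is an age or a length of treatment. The abbreviation WSD is not spelled out there, and the title of the series names oat beta-glucan in the diet and fatty liver disease. Nothing states that the libraries of a group come from different mice, so every p-value measures the spread between these libraries, which may be technical.

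As background, long-chain fatty acids are activated to acyl-CoA, carried into mitochondria by the carnitine shuttle and shortened in a repeated cycle of dehydrogenation, hydration, dehydrogenation and thiolysis. Peroxisomes shorten very long chains, the endoplasmic reticulum oxidises the far end of the chain (omega-oxidation), and the liver turns the acetyl-CoA formed into ketone bodies. PPAR alpha is a receptor for fatty acids that pairs with RXR alpha and, in the fasted liver, raises the transcription of genes in all of these routes.

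Estimated reads per library ran from 17253823 to 23450232. Levels are given as CPM (a gene's reads relative to the library's total, scaled between libraries by TMM, the trimmed mean of M values) in the order of the replicate numbers, and fold changes as log2 values ± SE from edgeR's quasi-likelihood test. A change is called where the p-value adjusted by Benjamini and Hochberg over the 13594 genes tested is under 0.05. All 20 general hepatocyte genes examined, albumin among them, had reads in every group, and their summed CPM was 150258 to 187047 in CTRL, 153309 to 218550 in CTRL+beta-Glucan, 92602 to 109688 in WSD and 103870 to 140538 in WSD+beta-Glucan. Summed CPM of 20 macrophage markers ran the other way, with 113 to 310 in CTRL, 98.1 to 389 in CTRL+beta-Glucan, 1233 to 1532 in WSD and 740 to 860 in WSD+beta-Glucan. In such bulk samples fewer hepatocytes and less RNA per hepatocyte cannot be told apart. On the second principal component over all genes, which held 6.68% of the variance, the 3 highest libraries were CTRL+beta-Glucan replicate 1, at 51.8, and CTRL+beta-Glucan replicate 2 and WSD+beta-Glucan replicate 1, each at 18.2, and the others lay between -21.6 and 10.3. These 3 were chosen with earlier results of these data known and by no fixed limit, and CTRL replicates 1 and 2, at 8.1 and 10.3, also lay away from the rest of CTRL, at -9.6 and below. Results that rest on the 3 libraries high on the second component are given with and without them.

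Per transcript length (TPM, as deposited and summed per gene), Fabp1, the fatty acid binding protein of the hepatocyte cytosol, was the most abundant member in CTRL with 9862 ± 2004 TPM (SD, n = 5). Below it stood Cyp4a14 with 2877 ± 878, Cyp4a10 with 2324 ± 524, Acaa1b with 2001 ± 421 and Slc27a2 with 1282 ± 117 TPM. The SD of Cyp4a14 reached down to the means of Cyp4a10 and Acaa1b. The SDs of Cyp4a10 and Acaa1b reached each other's means but not that of Cyp4a14. The least abundant member was Abcd2 at 2.31 ± 0.817 TPM. In WSD the order by TPM differed for the genes treated below. Cyp4a14 held rank 8 of 41 in place of rank 2, Acsl1 rank 15 in place of 9, Ehhadh rank 12 in place of 6 and Acot1 rank 33 in place of 11, while Hadh held rank 9 in place of 24.

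PPAR alpha with RXR alpha binds direct repeat 1, that is AGGTCA, any 1 base, and AGGTCA again. RefSeq promoter windows (build GRCm38.p6, 250 bases before to 50 after the annotated start) were in the table for 33 of the 41 members and were searched on both strands with up to 2 mismatches. A match was found for 6 members (18.2% of 33) and for 1190 of all 27025 genes in the table (4.40%), and with 1 mismatch allowed for 1 member (3.03%) and 0.644% of all genes. A match is a description of the letters only, and a window without one says nothing about binding. The matches are shown because they let the members that hold the repeat be read against their values below, with the 13 matched bases in capitals on the strand of the gene.
Fabp1 (chr6:71199788-71199847, plus strand): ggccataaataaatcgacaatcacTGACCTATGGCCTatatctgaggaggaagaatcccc
Echs1 (chr7:140116469-140116528, minus strand): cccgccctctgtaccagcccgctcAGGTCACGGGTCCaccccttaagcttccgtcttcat
Etfa (chr9:55512285-55512344, minus strand): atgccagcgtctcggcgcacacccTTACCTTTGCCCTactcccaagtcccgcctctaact
Slc25a20 (chr9:108662142-108662154, plus strand): AGGTGAAAGGTCG
Creb3l3 (chr10:81092765-81092824, minus strand): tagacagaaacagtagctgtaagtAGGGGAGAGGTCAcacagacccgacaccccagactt
Acot4 (chr12:84038342-84038378, plus strand): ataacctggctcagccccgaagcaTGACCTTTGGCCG
Fabp1 carried the match with 1 mismatch, on the opposite strand and 67 to 55 bases before its start, and the other 5 carried 2 mismatches each. The match of Slc25a20 lay just behind its start and is shown without flanks. Of these 6, the test of WSD against CTRL under TMM called Etfa, Slc25a20, Creb3l3 and Acot4 lower and did not call Fabp1 or Echs1. The members with the lowest fold changes in that comparison, Acot3, Cyp4a14 and Acot1, were not among the 6, and the table holds no window for Cyp4a14.

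The comparison of WSD with CTRL asks how the WSD treatment without beta-glucan altered these genes. Of the 41 members, 30 fell and 1 rose, against 27.1% lower and 26.0% higher of all genes tested. The median log2 fold change of the members was -0.60 and that of all genes -0.04, and 3 members lay above 0, against 46.6% of all genes. In 28 members every WSD library lay below every CTRL library and in 1 member above (all genes: 18.4% and 20%). How many fell depends on the scaling of the libraries. With total counts in place of TMM, 13 members were called lower and 5 higher (all genes: 4.54% and 57.9%), and the median of all genes lay at 0.43. With libraries scaled to the sum of the 20 hepatocyte genes, 7 were called lower and 10 higher (all genes: 2.05% and 74.0%) with the median of all genes at 0.66. Scaled to the median ratio over those genes, 7 were lower and 6 higher (all genes: 2.61% and 59.9%) with that median at 0.53. The members' median stood 0.56 below that of all genes under TMM, total counts and the hepatocyte sum, and 0.57 below it under the hepatocyte ratio. A change of scaling shifts members and all genes alike, so this difference stays the same by construction. Its repeat under other scalings is no further support. Acsl1, Ehhadh, Cyp4a10, Cyp4a14, Acot1, Acot3 and Acot4 were lower, and Hadh higher, under each of these scalings and under the size factors of DESeq2 (RLE). Beside the members, under TMM 14 of the 20 hepatocyte genes were called lower in WSD. Under the same scaling 19 of the 20 macrophage markers and 8 of 11 stellate cell markers were called higher. The stellate markers summed to 77.6 to 188 CPM in CTRL and 391 to 762 CPM in WSD. The part of the hepatocyte genes and cell markers in the members' values was not tested.

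**Figure D1:**
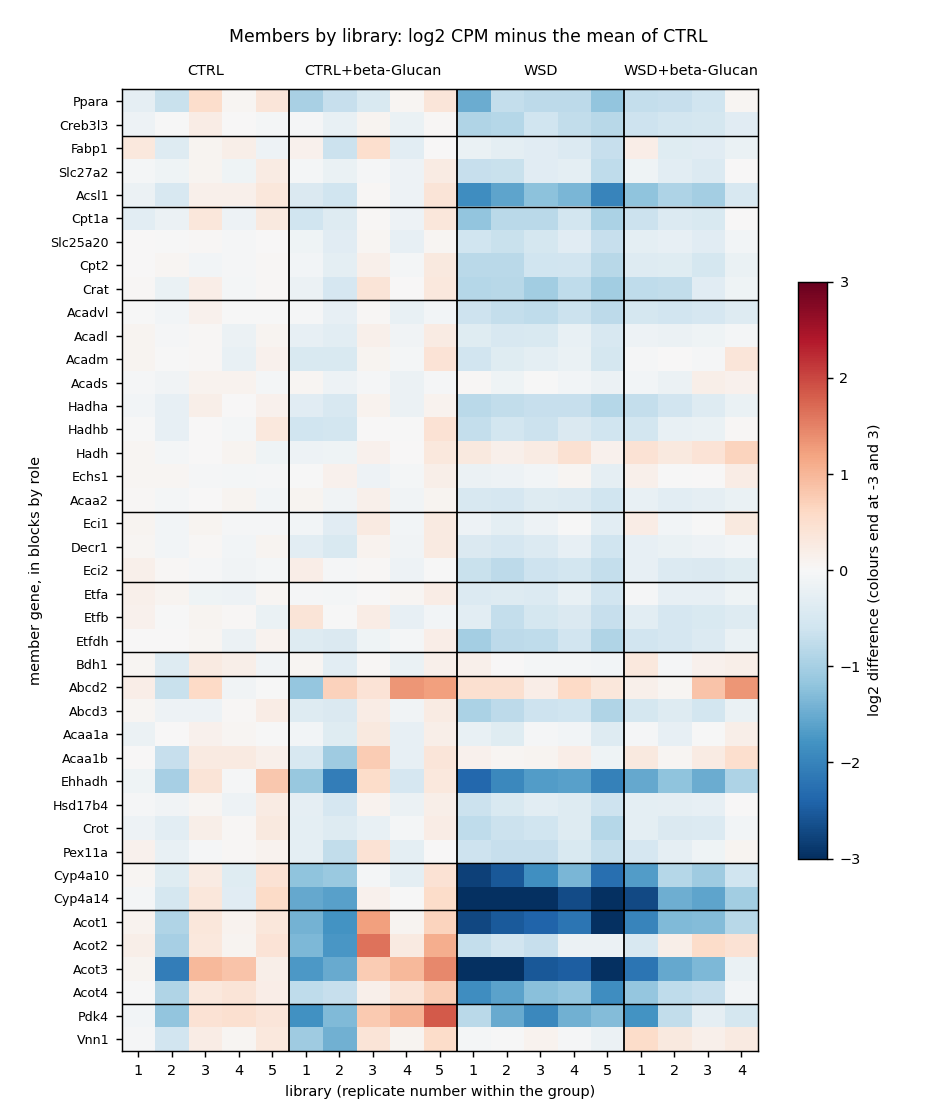
Heat map of the 41 members (rows, in blocks by role) in the 19 libraries (columns, by group and replicate number), coloured by log2 CPM minus the mean of the 5 CTRL libraries, TMM scaling. Cyp4a14, Acot1 and Acot3 are the darkest blue in the WSD libraries, and CTRL+beta-Glucan replicates 1 and 2 are blue for many of the same genes; under total count or hepatocyte scaling the pale rows of the WSD columns shift towards or past 0.

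Both regulators fell under TMM. Ppara itself measured 56.1, 43.0, 98.0, 70.4 and 86.8 CPM in CTRL and 24.2, 41.7, 39.3, 39.7 and 29.8 CPM in WSD. It read 34.7, 41.8, 49.4, 70.7 and 87.2 CPM in CTRL+beta-Glucan and 41.6, 42.3, 45.1 and 71.2 CPM in WSD+beta-Glucan. Every WSD library lay below every CTRL library, with little space between the highest WSD library and CTRL replicate 2. Both beta-glucan groups overlapped with CTRL and also with WSD. The fold change between WSD and CTRL was -1.02 ± 0.26 (adjusted p = 0.00371), and it was -0.55 with total counts and -0.33 with hepatocyte scaling, neither of them called. Creb3l3, a liver transcription factor of the endoplasmic reticulum that acts together with PPAR alpha, went from 491 ± 49.3 to 285 ± 24.2 CPM (SD, n = 5 each), a fold change of -0.79 ± 0.09 (adjusted p = 9.06e-07). With total counts Creb3l3 was still called at -0.32, and with hepatocyte scaling it was not, at -0.09.

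Of the 3 genes of uptake and activation, Acsl1 changed most. Acsl1 codes for the long-chain acyl-CoA synthetase that activates fatty acids at the mitochondrial and endoplasmic reticulum membranes. It measured 1887, 1548, 2385, 2383 and 2719 CPM in CTRL and 589, 716, 917, 827 and 544 CPM in WSD. In CTRL+beta-Glucan it measured 1588, 1409, 2179, 1926 and 2791 CPM and in WSD+beta-Glucan 935, 1132, 1057 and 1530 CPM. The highest WSD library lay well below the lowest library of CTRL and of CTRL+beta-Glucan, and every WSD+beta-Glucan library lay above every WSD library. The fold change of WSD against CTRL was -1.60 ± 0.20 (adjusted p = 2.00e-06), that is 0.329 times the CTRL level, and it remained called at -0.92 with hepatocyte scaling. Slc27a2, a very long-chain acyl-CoA synthetase and fatty acid transporter, was called at -0.54 ± 0.12 under TMM but stood at -0.08 with total counts and 0.15 with hepatocyte scaling, neither of them called. Fabp1 was not called (-0.39 ± 0.18, adjusted p = 0.0762) and its libraries overlapped, at 2826 to 4620 CPM in CTRL and 2311 to 3254 CPM in WSD. Without the 3 libraries high on the second component Fabp1 was called at -0.39 (adjusted p = 0.0434).

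All 4 genes of the carnitine shuttle fell under TMM, and 2 of them (Cpt2 and Crat) also with total counts. None fell with hepatocyte scaling, where Slc25a20 stood above 0 at 0.14. Of all genes 27.1%, 4.54% and 2.05% were called lower under these scalings in that order. Cpt1a, which forms acylcarnitine at the outer mitochondrial membrane and is regarded as the gate of mitochondrial oxidation, measured 576, 633, 907, 650 and 886 CPM in CTRL and 316, 410, 409, 491 and 372 CPM in WSD. With beta-glucan it measured 477, 550, 741, 646 and 912 CPM in the CTRL+beta-Glucan libraries and 457, 543, 519 and 726 CPM in the WSD+beta-Glucan libraries. The WSD libraries lay below all CTRL libraries, and those of WSD+beta-Glucan overlapped with each of the other 3 groups. Cpt2, which turns acylcarnitine back into acyl-CoA inside the mitochondrion, went from 278 ± 10.9 to 169 ± 15.5 CPM (fold change -0.72 ± 0.10, adjusted p = 5.49e-06). Crat, the carnitine transferase of short chains, reached -0.91, Cpt1a -0.87 and Slc25a20, the carrier that exchanges carnitine and acylcarnitine, -0.56.

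In the mitochondrial spiral 6 of 9 genes fell under TMM and Hadh rose (all genes: 27.1% lower and 26.0% higher). With total counts 1 was lower and 3 higher (all genes: 4.54% and 57.9%). With hepatocyte scaling 0 were lower and 4 higher (all genes: 2.05% and 74.0%). The calls of the group thus turn with the scaling, as do those of all genes. The 4 acyl-CoA dehydrogenases are given by the chain length they act on. Acadvl, for very long chains, had a fold change of -0.71 ± 0.08, Acadl, for long chains, of -0.40 ± 0.10, Acadm, for medium chains, of -0.39 ± 0.14 and Acads, for short chains, of -0.08 ± 0.08, the last not called; no test compared them with each other. With total counts the same 4 stood at -0.24, 0.07, 0.07 and 0.39, with Acadvl called lower and Acads called higher. Hadha and Hadhb, the subunits of the trifunctional protein that handles long chains, stood at -0.77 ± 0.12 and -0.60 ± 0.16 under TMM, and Hadhb stood at 0.10 with hepatocyte scaling. Acaa2, the mitochondrial thiolase, had -0.47 ± 0.08 under TMM and 0.23 with hepatocyte scaling, and Echs1, the short-chain hydratase, was not called at -0.12 ± 0.08. The call of Acadm was lost without WSD replicate 1 or 5 or CTRL replicate 1 or 5, at adjusted p up to 0.0703 for Acadm in WSD against CTRL.

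Hadh, the dehydrogenase of short and medium-chain hydroxyacyl-CoA, was the 1 member called higher under TMM. It measured 342, 316, 332, 346 and 301 CPM in CTRL and 399, 364, 388, 446 and 360 CPM in WSD. Its level was 292, 297, 360, 327 and 410 CPM in CTRL+beta-Glucan and 445, 400, 438 and 521 CPM in WSD+beta-Glucan. The WSD libraries lay above all CTRL libraries, and 3 of the 4 WSD+beta-Glucan libraries lay above the highest CTRL+beta-Glucan library. The fold change of WSD against CTRL was 0.26 ± 0.10 (adjusted p = 0.0353) under TMM, where 26.0% of all genes were called higher. It was 0.72 with total counts and 0.96 with hepatocyte scaling, where 57.9% and 74.0% of all genes were called higher. A change of scaling shifts all genes together, so these larger values are no further support for a rise of Hadh. Under TMM the call was lost when any of WSD replicates 1, 3 or 4 or CTRL replicates 2, 3 or 5 was left out, with adjusted p up to 0.0981 for Hadh.

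Of the auxiliary enzymes for unsaturated chains, Eci2 (-0.67 ± 0.08) and Decr1 (-0.43 ± 0.11) were called lower under TMM, and Eci1 was not (-0.18 ± 0.11). With hepatocyte scaling Eci1 was called higher at 0.52, and Decr1 and Eci2 stood above 0 at 0.27 and 0.04 without a call. The electron transfer flavoprotein subunits Etfa and Etfb and the ubiquinone reductase Etfdh, which pass the electrons of the first oxidation step to the respiratory chain, all fell under TMM (Etfa -0.41, Etfb -0.53, Etfdh -0.81). Only Etfdh of these 3 was called lower with total counts (-0.35), and Etfa was called higher with hepatocyte scaling (0.30). Etfdh measured 453, 450, 465, 394 and 479 CPM in CTRL and 219, 260, 263, 299 and 239 CPM in WSD, with no overlap.

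The ketogenic member Bdh1, which reduces acetoacetate to hydroxybutyrate, was not called under TMM. It measured 288, 212, 336, 312 and 259 CPM in CTRL and 311, 281, 267, 267 and 262 CPM in WSD (fold change -0.02 ± 0.11, adjusted p = 0.902). The range of the WSD libraries lay inside that of CTRL, and with total counts Bdh1 was called higher at 0.45. Of the 9 ketone body genes listed beside the members, 3 were called lower and 3 higher under TMM, near the shares of all genes (27.1% and 26.0%). Among them were Oxct1 (1.79, at 2.05 CPM in CTRL and 7.11 CPM in WSD) and Aacs (1.45), which use ketone bodies, and the transporter Slc16a1 (-0.79). With total counts 1 was called lower and 5 higher (all genes: 4.54% and 57.9%).

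Of the 8 peroxisomal members 5 fell under TMM and none rose (all genes: 27.1% lower and 26.0% higher). With hepatocyte scaling 1, Ehhadh, was lower and 3 (Abcd2, Acaa1a and Acaa1b) were called higher (all genes: 2.05% lower and 74.0% higher). Ehhadh codes for the bifunctional enzyme of peroxisomal oxidation and is a classical PPAR alpha target. It measured 2049, 1122, 2920, 2188 and 3909 CPM in CTRL and 440, 587, 702, 732 and 554 CPM in WSD. It measured 1026, 538, 3270, 1575 and 2782 CPM in CTRL+beta-Glucan and 773, 969, 796 and 1179 CPM in WSD+beta-Glucan. WSD and CTRL did not overlap, and the CTRL+beta-Glucan group spanned a 6.08-fold range with its replicate 2 inside the WSD range. The fold change of WSD against CTRL was -2.02 ± 0.40 (adjusted p = 0.000439), 0.247 times the CTRL level.

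The other peroxisomal members had smaller fold changes. Abcd3, a transporter of long acyl chains into the peroxisome, had -0.77 ± 0.13, Crot, the octanoyl transferase that prepares the products for export, -0.66 ± 0.13, Pex11a, a factor of peroxisome division, -0.64 ± 0.16, and Hsd17b4, the bifunctional enzyme of branched chains, -0.49 ± 0.12. All 4 were called under TMM and none with total counts, and Crot, Pex11a and Hsd17b4 stood above 0 with hepatocyte scaling (0.04, 0.07 and 0.21). The peroxisomal thiolases were not called, with Acaa1a at -0.21 ± 0.12 and Acaa1b at 0.03 ± 0.25. These 2 copies share 40.0% of the 31-base words of Acaa1b, so reads could be split between them, and their sum had a fold change of 0.01 ± 0.23. Abcd2, a peroxisomal transporter at a low level, was not called at 0.37 ± 0.34.

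Both omega-oxidation members fell under every scaling. Cyp4a14, a fatty acid omega-hydroxylase and one of the most responsive PPAR alpha targets of the mouse liver, measured 5809, 4135, 7596, 4741 and 9002 CPM in CTRL and 250, 641, 681, 929 and 517 CPM in WSD. It measured 2057, 1930, 6537, 5956 and 8761 CPM in CTRL+beta-Glucan and 922, 2189, 2000 and 2918 CPM in WSD+beta-Glucan. The highest WSD library was far below the lowest CTRL library, and WSD+beta-Glucan replicate 1 fell inside the WSD range while its other 3 libraries lay above it. The fold change of WSD against CTRL was -3.37 ± 0.46 (adjusted p = 1.23e-05), which is 10.4-fold lower. Cyp4a10, its close relative, measured 4444, 3359, 5056, 3366 and 5772 CPM in CTRL and 613, 743, 1201, 1657 and 901 CPM in WSD, with no overlap and a fold change of -2.10 ± 0.33 (adjusted p = 3.48e-05). Cyp4a10 shares 44.9% of its 31-base words with other genes, mostly Cyp4a32 and Cyp4a31, and its value is uncertain for that reason; the whole Cyp4a family summed had -2.63 ± 0.37.

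Of the 4 acyl-CoA thioesterases, which free fatty acids from acyl-CoA, 3 were lower under each scaling and Acot2 was not called. Acot1, the cytosolic enzyme, measured 280, 140, 330, 282 and 331 CPM in CTRL and 39.3, 45.7, 49.5, 56.7 and 33.0 CPM in WSD. With beta-glucan it measured 98.4, 75.5, 608, 278 and 415 CPM beside CTRL and 66.5, 104, 106 and 147 CPM beside WSD. The WSD libraries lay below every library of the other 3 groups. The fold changes of WSD against CTRL were -2.61 ± 0.47 for Acot1, -3.38 ± 0.69 for Acot3 and -1.59 ± 0.30 for Acot4, both of the latter peroxisomal, and -0.53 ± 0.49 for the mitochondrial Acot2, which was not called. Acot3 was low in WSD, at 4.52, 4.83, 9.09, 9.52 and 3.42 CPM against 55.5, 12.4, 103, 95.3 and 59.7 CPM in CTRL, where replicate 2 stood nearest to WSD. The genes of this cluster share sequence (37.3% of the words of Acot2), and Acot1 to Acot6 summed had -2.10 ± 0.42.

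Of the other targets, Pdk4, the kinase that holds back pyruvate dehydrogenase when fat is burned, measured 33.6, 15.5, 48.0, 49.6 and 45.3 CPM in CTRL and 20.1, 12.5, 9.26, 13.0 and 14.5 CPM in WSD. It was called at -1.47 ± 0.55 (adjusted p = 0.035) although CTRL replicate 2 lay inside the WSD range. The call was lost without any of WSD replicates 2 to 5 or CTRL replicates 3 to 5, with adjusted p up to 0.26 for Pdk4 over all settings, and with total counts (-0.99) and hepatocyte scaling (-0.76). Vnn1, which hydrolyses pantetheine at the cell surface, was not called at -0.06 ± 0.28.

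Set side by side by compartment under TMM, the 20 mitochondrial members, which take in Bdh1, Acot2 and Pdk4, had a median fold change of -0.50 with 14 lower and 1 higher. The 10 peroxisomal members, which take in Acot3 and Acot4, had a median of -0.65 with 7 lower. The 2 omega-oxidation genes had one of -2.74 with both lower (all genes: 27.1% lower and 26.0% higher). With total counts those medians were -0.03, -0.18 and -2.28, and with hepatocyte scaling 0.21, 0.05 and -2.05. The medians of all genes, given above, rose with these scalings too, and 57.9% and 74.0% of all genes were then called higher. These are descriptions, and no test compared the compartments.

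**Figure D2:**
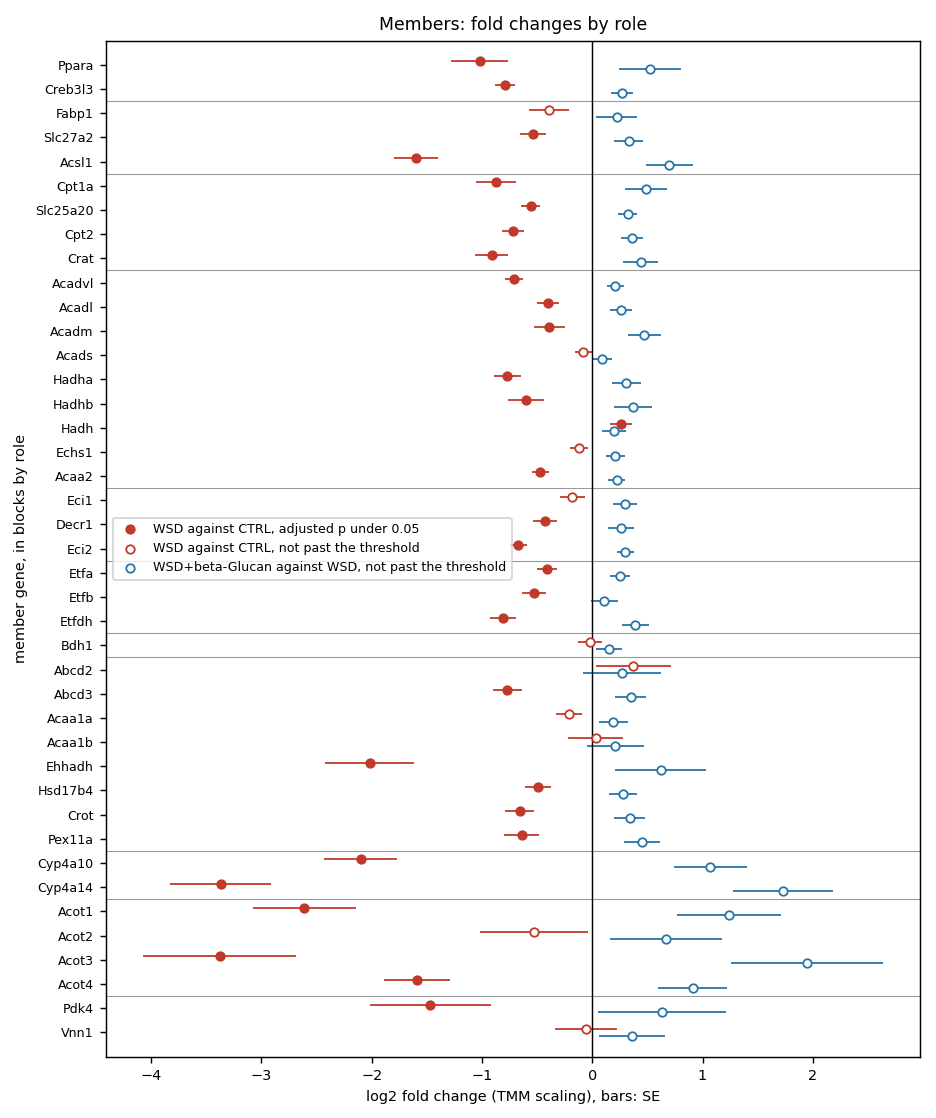
Log2 fold changes with SE (x axis, TMM scaling) of the 41 members (y axis, in blocks by role) for WSD against CTRL (red) and WSD+beta-Glucan against WSD (blue), filled where the adjusted p was under 0.05. Red points lie left of 0 for 38 members and blue points right of 0 for all 41, none of the latter filled; both comparisons use the same WSD libraries, and with total counts 27 red and 38 blue points keep those sides.

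Whether beta-glucan altered the genes under WSD is asked by setting WSD+beta-Glucan against WSD. No member was called by edgeR in either direction, against 0.0883% higher and 0.302% lower of all genes. At an unadjusted p under 0.05, 28 members were higher and 0 lower (all genes: 7.69% and 7.89%), and DESeq2 called 5 higher and 0 lower (all genes: 0.691% and 2.52%), namely Cyp4a14 (1.70, adjusted p = 0.00683), Eci2, Acsl1, Cpt2 and Slc25a20. All 41 fold changes were above 0 under TMM with a median of 0.33 (all genes: 52.4% above 0, median 0.01). With total counts 38 were above 0 with a median of 0.18, and with hepatocyte scaling 26 with a median of 0.04. A change of scaling shifts all genes, and their share above 0 with total counts or hepatocyte scaling is not given here. In 17 members every WSD+beta-Glucan library lay above every WSD library and in 0 below (all genes: 2.59% and 4.83%). With total counts 5 lay above and 0 below (all genes: 0.706% and 8%), and with hepatocyte scaling 0 and 0 (all genes: 0.125% and 10.6%). The fold changes of WSD+beta-Glucan against WSD and of WSD against CTRL share the WSD libraries, so an error in these moves both in opposite directions.

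The highest fold changes between WSD+beta-Glucan and WSD belonged to Acot3 (1.95 ± 0.69, adjusted p = 0.198), Cyp4a14 (1.73 ± 0.45, adjusted p = 0.0884), Acot1 (1.24 ± 0.47, adjusted p = 0.223) and Cyp4a10 (1.07 ± 0.33, adjusted p = 0.137). The mean of Cyp4a14 was 2008 ± 825 CPM (SD, n = 4) in WSD+beta-Glucan, 604 ± 248 in WSD (n = 5) and 6256 ± 2021 in CTRL (n = 5), so the mean of WSD+beta-Glucan lay between those of WSD and CTRL. Acsl1 reached 0.70 ± 0.21 (adjusted p = 0.124) and Ppara 0.52 ± 0.28 (adjusted p = 0.376). By role the medians were 1.40 for omega-oxidation, 1.07 for the thioesterases, 0.40 for the carnitine shuttle, 0.31 for the peroxisomal members, 0.25 for electron transfer, 0.22 for the mitochondrial spiral and 0.15 for Bdh1. With hepatocyte scaling the medians of the spiral and of electron transfer turned to -0.06 and -0.04 and Bdh1 to -0.14, while omega-oxidation stayed at 1.15 and the thioesterases at 0.80.

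Leaving out the 3 libraries high on the second component, edgeR called 2 members higher in WSD+beta-Glucan, Cyp4a14 (1.97, adjusted p = 0.0331) and Acot1 (1.41, adjusted p = 0.0463), and 0 lower (all genes: 0.0580% and 0.283%). Then 28 members lay above WSD without overlap and 0 below (all genes: 5.11% and 6.91%). With a term for those 3 libraries in the model 13 were called higher and 0 lower (all genes: 0.581% and 1.32%). With only the 2 groups in the fit 1, Acot1 (adjusted p = 0.0156), was called higher and 0 lower (all genes: 0.344% and 3.07%). Within WSD+beta-Glucan, replicate 4 was the highest library for 32 of 41 members (25.9% of all genes) and replicate 1 the lowest for 20 (27.7% of all genes). Replicate 1 is among the libraries left out. It lay below the mean of the other 3 for 29 of the 41 members (52.6% of all genes), and its removal raises the group's mean for those 29 by construction. A count without overlap can only stay or grow when libraries are left out. These fits are therefore no independent support for a rise. The summed macrophage markers were also lower in WSD+beta-Glucan than in WSD without overlap, with 2 of 20 markers called lower by edgeR, 7 by DESeq2 and 14 at an unadjusted p under 0.05, and 0 higher each time. Of the 20 hepatocyte genes 0 were called by edgeR, 1 was called higher by DESeq2, and 6 were higher and 0 lower at an unadjusted p under 0.05. The part of both lists in the members' values was not tested.

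**Figure D3:**
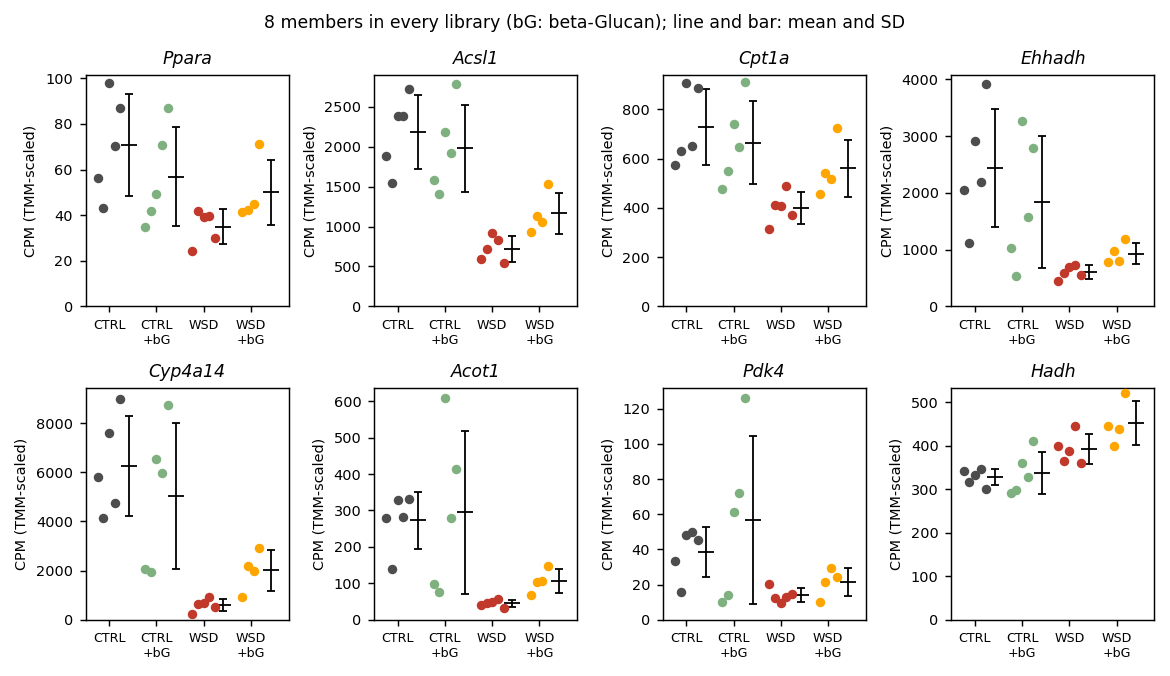
CPM (TMM-scaled, linear axes from 0) of 8 members in each library of the 4 groups, with the mean and SD beside the points. In Acsl1, Cyp4a14 and Acot1 the WSD points lie below all CTRL points, and in CTRL+beta-Glucan 2 low points, replicates 1 and 2, lie apart from the other 3 for Cyp4a14, Acot1 and Pdk4.

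The comparison of CTRL+beta-Glucan with CTRL asks the same without WSD. No member was called by edgeR in either direction (all genes: 0.00736% higher and 0% lower), none had an unadjusted p under 0.05, and DESeq2 called none (all genes: 0.0441% higher and 0% lower). The median fold change was -0.06 with 15 members above 0 (all genes: 50.8%), and no member's libraries were free of overlap in either direction (all genes: 0.280% higher and 0.206% lower). The fold change of Cyp4a14 was -0.31 ± 0.42, of Ehhadh -0.41 ± 0.39, of Ppara -0.32 ± 0.26, of Acsl1 -0.14 ± 0.20 and of Pdk4 0.57 ± 0.53. With total counts the members' median was -0.04 and with hepatocyte scaling -0.18, again with none called.

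Within CTRL+beta-Glucan the 2 libraries high on the second component were low for many members. Cyp4a14 measured 2057 and 1930 CPM in replicates 1 and 2 and 6537, 5956 and 8761 CPM in the other 3, Acot1 98.4 and 75.5 against 608, 278 and 415, Pdk4 10.1 and 14.1 against 61.1, 71.9 and 126, and Vnn1 64.4 and 49.8 against 176, 143 and 198. In 37 of the 41 members the mean of replicates 1 and 2 lay below that of replicates 3 to 5, with a median log2 ratio of -0.43 (all genes: 51.4% below, median -0.01). In 26 members both lay below all 3 others (all genes: 16.9%). Without these libraries and WSD+beta-Glucan replicate 1, 31 members lay above 0 with a median of 0.09 and still none was called. The source of that spread was not tested.

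In CTRL, replicate 2 was the lowest library for 25 of the 41 members (21.3% of all genes). In WSD, replicate 5 was the lowest for 24 (16.9%) and replicate 4 the highest for 26 (20.2%). The reads of all 41 members together made up 2.48% to 3.59% of a library in CTRL, 1.79% to 3.94% in CTRL+beta-Glucan, 2.05% to 2.39% in WSD and 2.47% to 3.0% in WSD+beta-Glucan. By this unscaled share the WSD range lay below those of CTRL and WSD+beta-Glucan and inside that of CTRL+beta-Glucan, whose replicates 1 and 2 held 1.96% and 1.79%.

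The comparison of WSD+beta-Glucan with CTRL+beta-Glucan asks what WSD changed in the presence of beta-glucan. Under TMM 10 members fell and 1, Hadh (0.42 ± 0.11, adjusted p = 0.00445), rose, against 15.2% lower and 19.1% higher of all genes. The median was -0.19 with 9 members above 0 (all genes: 48.5%), and 5 members (Creb3l3, Acadvl, Acaa2, Eci2 and Etfb) were lower without overlap and 0 higher (all genes: 10.7% and 14.4%). The members called lower were Acot1 (-1.48 ± 0.49), Cyp4a14 (-1.33 ± 0.46), Acsl1 (-0.77 ± 0.21), Crat, Etfb, Creb3l3, Acadvl, Cpt2, Eci2 and Acaa2, the last 7 between -0.51 and -0.27. With total counts and both hepatocyte scalings none was called lower (all genes: 2.83%, 1.07% and 1.42%), and 6, 17 and 5 were called higher (all genes: 37.8%, 66.1% and 37.0%), Hadh among them each time at 0.71, 0.97 and 0.78. Without the 3 libraries high on the second component 17 members were called lower and none higher under TMM (all genes: 8.99% and 15.8%). Leaving out CTRL+beta-Glucan replicate 2 alone gave 17 lower and 1 higher (all genes: 13.7% and 17.8%), and WSD+beta-Glucan replicate 2 alone 6 lower and 1 higher (all genes: 11.2% and 15.6%). Beside the members, under TMM 9 of the 20 hepatocyte genes were called lower and 0 higher in WSD+beta-Glucan. Called higher there were 18 of 20 macrophage markers, 8 of 11 stellate cell markers and 6 of 7 cholangiocyte markers. The remaining cholangiocyte marker was called lower. The stellate markers summed to 72 to 195 CPM in CTRL+beta-Glucan and 286 to 489 CPM in WSD+beta-Glucan. The part of these cell markers in the members' values was not tested.

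Whether the beta-glucan effect differed between WSD and CTRL was tested as an interaction. No member passed in edgeR (all genes: 0% higher and 0.00736% lower) or in DESeq2 (0.103% and 0.920%), while 19 had an unadjusted p under 0.05 with the larger effect under WSD and 0 with the smaller (all genes: 6.90% and 6.82%). The difference was above 0 for 40 of 41 members under TMM (all genes: 51.8%) with a median of 0.37, and for 37 with total counts with a median of 0.19. It was 2.04 ± 0.62 for Cyp4a14, 1.43 ± 0.46 for Cyp4a10, 0.84 ± 0.29 for Acsl1 and 0.43 ± 0.13 for Slc25a20 (adjusted p = 0.219, 0.226, 0.243 and 0.21). Without the 3 libraries high on the second component the median was 0.28 with 35 members above 0. The share of all genes above 0 with total counts or without these libraries is not given here. With the hepatocyte ratio the difference was 1.80 ± 0.73 for Cyp4a14, 1.21 ± 0.55 for Cyp4a10, 0.63 ± 0.35 for Acsl1 and 0.23 ± 0.20 for Slc25a20, none of them called.

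**Figure D4:**
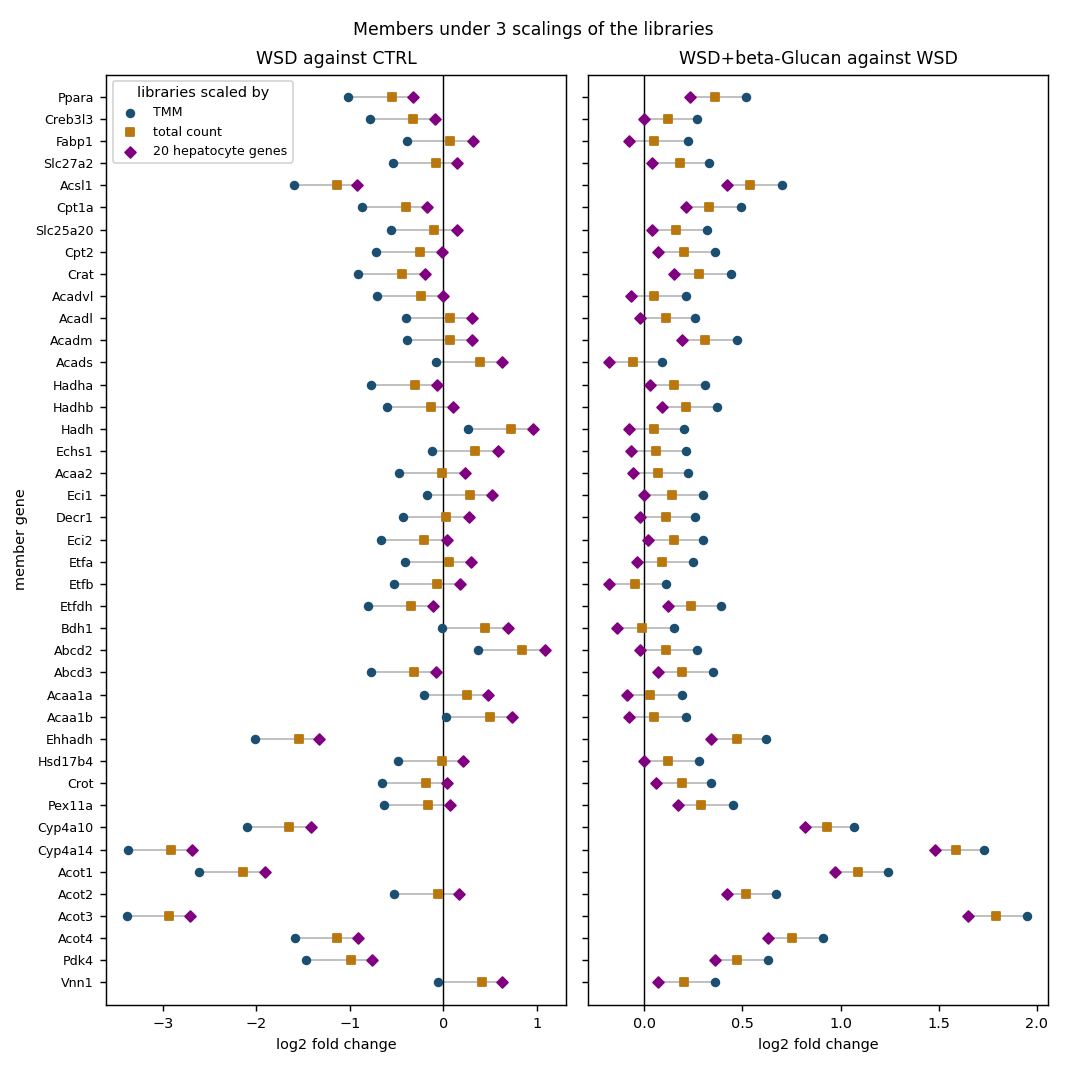
Log2 fold changes (x axes) of the 41 members (y axis) for WSD against CTRL and for WSD+beta-Glucan against WSD with the libraries scaled by TMM (circles), by total count (squares) or by the sum of 20 hepatocyte genes (diamonds). The scaling shifts all members of a comparison by about the same amount; in the left panel 38, 27 and 17 members lie below 0 under the 3 scalings, and in the right panel 41, 38 and 26 lie above 0.

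Other genes of the same routes were counted in WSD against CTRL from lists written beside the members. Of 20 further peroxisomal oxidation genes tested, 12 were called lower and 3 higher, of 17 peroxisome biogenesis genes 11 lower and 1 higher, of 17 further omega-oxidation genes 10 lower and 2 higher, of 22 further mitochondrial genes 7 lower and 5 higher, of 32 further PPAR alpha targets 15 lower and 9 higher, and of 28 partners and regulators 14 lower and 2 higher, against the 27.1% lower and 26.0% higher of all genes. With total counts these became 2 and 6, 1 and 6, 8 and 6, 2 and 12, 5 and 11, and 4 and 7, where 4.54% of all genes were called lower and 57.9% higher. In WSD+beta-Glucan against WSD edgeR called none of them, and unadjusted p-values under 0.05 were found for 6 higher and 0 lower, 7 and 0, 3 and 2, 8 and 0, 6 and 1, and 2 and 1 in the same order of lists. DESeq2 called 1 higher and 0 lower, 0 and 0, 0 and 1, 0 and 0, 2 and 1, and 1 and 1 in that order.

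The 4 further peroxisomal genes with the smallest p were Hacl1, the lyase of branched chains (-2.06 ± 0.28), the thioesterase Acot8 (-0.81 ± 0.13), the isomerase Ech1 (-0.45 ± 0.09) and the reductase Decr2 (-0.50 ± 0.10), and with hepatocyte scaling Ech1 and Decr2 stood above 0 at 0.26 and 0.20. Of peroxisome biogenesis they included Pxmp4 (-0.97), Pex16 (-0.69) and Pex19 (-0.56), of which Pex16 and Pex19 stood at 0.01 and 0.14 with hepatocyte scaling. Of further omega-oxidation genes they were Cyp4f18 (3.68), Cyp4f13 (-0.74), Cyp4a32 (-1.63) and Cyp4a31 (-2.48), the last 2 sharing words with Cyp4a10. Cyp4f18 was at a low level, with means of 0.330 CPM in CTRL and 4.30 CPM in WSD. Of further mitochondrial genes they were the thioesterase Acot9 (1.89), the CoA carrier Slc25a42 (-0.71) and the dehydrogenases Acad12 (1.13) and Acadsb (-0.66, or 0.03 with hepatocyte scaling).

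PPAR alpha's partner Rxra fell from 448 ± 53.1 to 289 ± 39.2 CPM (fold change -0.63 ± 0.10, adjusted p = 4.93e-05) under TMM and stood at 0.06 with hepatocyte scaling. Ppargc1a, the coactivator PGC-1 alpha, was at 8.28 ± 3.17 CPM in CTRL and 3.59 ± 0.608 CPM in WSD (-1.21 ± 0.25, adjusted p = 0.000407). The other leading regulators were Pparg (1.13), Acaca, which makes malonyl-CoA (0.67), and the deacetylase Sirt3 (-0.46, or 0.25 with hepatocyte scaling). Genes listed beside the members as PPAR alpha targets were called in both directions. Angptl4, a lipase inhibitor, had -0.91 ± 0.13, Retsat -2.10 and Apoa5 -1.22, while Cd36, a fatty acid transporter, had 1.80 ± 0.24, Fabp4 2.83 and Ucp2 1.96. Macrophage markers (19 of 20 called higher) and Pparg also rose in this comparison, and their part in these values was not tested. Whether PPAR alpha drives the listed genes here was not tested either. Plin2, the lipid droplet coat protein (-0.16 ± 0.13, adjusted p = 0.307), and Fgf21, a fasting hormone (0.86 ± 0.45, adjusted p = 0.114), were not called. In WSD+beta-Glucan against WSD none of the genes named in this paragraph was called by edgeR. Rxra stood at 0.33 ± 0.11, Ppargc1a at 0.52 ± 0.26, Angptl4 at 0.35 ± 0.14, Cd36 at 0.20 ± 0.25, Plin2 at 0.09 ± 0.14 and Fgf21 at -0.71 ± 0.47.

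With beta-glucan in both groups, the genes with the smallest p of the same lists in WSD+beta-Glucan against CTRL+beta-Glucan included Acot9 (1.71), Acad12 (1.32), Acss1 (3.11) and Acad9 (0.38) of mitochondria, Aacs (1.43), Oxct1 (1.23) and Slc16a6 (0.65) of ketone bodies, and Hacl1 (-1.20), Acot8 (-0.53) and Paox (-0.37) of peroxisomes. Pxmp4 (-0.76), Pex16 (-0.41) and Pex11g (0.24) were called among the biogenesis genes, and Cyp4f13 (-0.66), Cyp4f18 (1.98), Cyp4a32 (2.01-fold lower) and Cyp4a31 (-1.36) among those of omega-oxidation. Ucp2 (1.53), Cidea (6.02), Fabp4 (2.59), Apoa5 (-1.02) and, by name, Cd36 (2.17) and Angptl4 (-0.66) were called among the genes listed as targets. Pparg (0.96), Hnf4a (-0.59), Acaca (0.37) and Esrra (-0.37) were called among the regulators. With hepatocyte scaling Acot8, Paox, Pex16 and Esrra stood above 0, at 0.01, 0.19, 0.14 and 0.19. Levels in CTRL+beta-Glucan were low for Acss1 (0.159 CPM), Cyp4f18 (0.539 CPM) and Cidea (0.756 CPM), so the size of their fold changes is uncertain. In WSD+beta-Glucan Acss1 averaged 1.41 ± 1.15 CPM (SD, n = 4).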

How the data were processed

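Liver RNA was sequenced in 19 libraries of 4 groups, made with a stranded mRNA kit per the labels' protocols. The authors deposited Salmon 1.10.1 tables of estimated counts, TPM and effective length per transcript, with genome build GRCm39 per the submitters' processing notes, which also list DESeq2 1.38.3 without a role. The transcript set and filters are not given in the sources used here. Deposited estimated counts were summed per gene through GENCODE M21 identifiers (99.51% of 116546 transcripts matched, with 0.0623% to 0.1095% of reads unmatched) and rounded to whole numbers. Deposited TPM values were summed per gene and used for levels between genes only.

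Genes were filtered with filterByExpr (13594 kept) and tested with edgeR 4.0.16 in R 4.3.3 (quasi-likelihood, TMM, 1 mean per group over all 19 libraries, Benjamini-Hochberg adjustment, threshold 0.05, two-sided), after the method was tested on simulated data. Depth was 17253823 to 23450232 estimated reads per library. DESeq2 1.42.0, other scalings, filters, effective length offsets, coding transcripts only, summed families and left-out libraries were alternatives. The members and lists were chosen with earlier results of these data known. All members are named, with up to 4 called genes of smallest p per further list and comparison, and Rxra, Ppargc1a, Fgf21, Angptl4, Plin2 and Cd36 whatever their value. Some further genes that this rule names are not reported here.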

Additional observations from a re-analysis of the deposited data

Results flagged for a closer look

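Among 164 sets of libraries (each member in each group), 6 had 1 library far from the others of its group, where chance alone gives about 1 in 20. WSD+beta-Glucan replicate 4 was the high library for 3 members. Ppara read 71.2 CPM there and 41.6 to 45.1 CPM in the other 3 libraries, Acadm read 663 CPM against 502 to 523 CPM, and Hsd17b4 read 685 CPM against 557 to 571 CPM. CTRL replicate 2 was the low library for the other 3. Acaa1b read 1691 CPM there and 2759 to 3271 CPM in the other 4 libraries, Acot1 read 140 CPM against 280 to 331 CPM, and Acot2 read 16.9 CPM against 35.8 to 44.9 CPM.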

How the results depend on the processing

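Scaling by the median ratio over the hepatocyte genes and by total counts was chosen after seeing the data. In WSD against CTRL the members called higher and lower numbered 1 and 30 under TMM, 10 and 7 with the hepatocyte sum, 6 and 7 with the hepatocyte ratio and 5 and 13 with total counts. Leaving out 1 library at a time gave 0 to 1 higher and 28 to 31 lower. In WSD+beta-Glucan against WSD no member was called under TMM, while DESeq2 called 5 higher, the fit of the 2 groups alone 1, the fit without the 3 libraries high on the second component 2 and a term for them 13, and 0 were called whichever single library was left out. In WSD+beta-Glucan against CTRL+beta-Glucan the members higher and lower numbered 1 and 10 under TMM and 17 and 0 with the hepatocyte sum. They numbered 5 and 0 with the hepatocyte ratio, 6 and 0 with total counts and 0 and 17 without the 3 libraries. With a term for those libraries they numbered 1 and 18, with DESeq2 1 and 16 and with the 2 groups alone 1 and 5. DESeq2 called 2736 higher and 2254 lower of all 13594 genes. Shares of all genes for the term and for the 2 groups alone are not given here. Leaving out 1 library at a time gave 1 higher and 6 to 17 lower, with 6 without WSD+beta-Glucan replicate 2 and 17 without CTRL+beta-Glucan replicate 2. In CTRL+beta-Glucan against CTRL and in the difference of the beta-glucan effects no member was called in any of these fits. The causes of these changes were not tested.

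Among fold changes of members and named genes that were called under TMM or under the alternative, signs turned only with the scalings by hepatocyte genes and total counts. Others turned elsewhere too: in CTRL+beta-Glucan against CTRL, where none was called, 15 members lay above 0 under TMM, 31 without the 3 libraries, 24 with a term for them and 6 to 24 with 1 library left out. In WSD against CTRL the members' median became 0.10 with the hepatocyte sum, and in WSD+beta-Glucan against CTRL+beta-Glucan it became 0.35 with the hepatocyte sum, 0.13 with the hepatocyte ratio and 0.08 with total counts. Log2 fold changes that lay below 0 under TMM and at or above 0 under the scaling named, and were called in at least 1 of both, follow, members and other named genes together. In WSD against CTRL with the hepatocyte sum they were Slc27a2 0.15, Slc25a20 0.14, Acadl 0.31, Acadm 0.31, Acads 0.63, Hadhb 0.10, Echs1 0.58, Acaa2 0.23, Eci1 0.52, Decr1 0.27, Eci2 0.04, Etfa 0.30, Etfb 0.18, Bdh1 0.69, Acaa1a 0.48, Hsd17b4 0.21, Crot 0.04, Pex11a 0.07, Acadsb 0.03, Decr2 0.20, Ech1 0.26, Esrra 0.35, Paox 0.35, Pex16 0.01, Pex19 0.14, Plin2 0.55, Rxra 0.06 and Sirt3 0.25. With the hepatocyte ratio they were Slc27a2 0.02, Slc25a20 0.01, Acadl 0.17, Acadm 0.18, Acads 0.49, Echs1 0.45, Acaa2 0.10, Eci1 0.39, Decr1 0.14, Etfa 0.16, Etfb 0.04, Bdh1 0.55, Hsd17b4 0.08, Decr2 0.07, Ech1 0.12, Esrra 0.22, Paox 0.21, Pex19 0.01, Plin2 0.41 and Sirt3 0.11. With total counts they were Acadl 0.07, Acadm 0.07, Acads 0.39, Echs1 0.34, Eci1 0.28, Decr1 0.03, Etfa 0.06, Bdh1 0.45, Ech1 0.01, Esrra 0.12, Paox 0.11 and Sirt3 0.00. In WSD+beta-Glucan against CTRL+beta-Glucan with the hepatocyte sum they were Creb3l3 0.11, Slc27a2 0.37, Slc25a20 0.42, Cpt2 0.17, Crat 0.03, Acadvl 0.17, Acadl 0.45, Acaa2 0.29, Decr1 0.46, Eci2 0.20, Etfa 0.36, Etfb 0.08, Hsd17b4 0.45, Crot 0.38, Acadsb 0.30, Acot8 0.01, Decr2 0.48, Ech1 0.38, Esrra 0.19, Paox 0.19, Pex16 0.14, Pex19 0.38, Rxra 0.43, Sirt3 0.39, Slc16a1 0.07 and Slc25a42 0.24. With the hepatocyte ratio they were Acaa2 0.11, Eci2 0.02, Esrra 0.02, Paox 0.02 and Slc25a42 0.05, and with total counts Acaa2 0.03.

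No paired analysis was possible because the labels pair no libraries, and the replicate numbers were given in accession order. At 17253823 to 23450232 reads, the lowest member in CTRL, Abcd2, averaged 9.21 CPM. Cyp4a10, Etfb, Acaa1b and Acot2 share 44.9%, 49.9%, 40.0% and 37.3% of their 31-base words with other genes, and how the authors' counting divided those reads is not given in the sources used here. Scaling by hepatocyte genes sets those genes as unchanged by construction.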
